A study of Arabidopsis thaliana with 12 samples.

Results

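The regions described here are 719 binding regions of a tagged DELLA protein that lie in short stretches between neighbouring genes of Arabidopsis thaliana, out of 5755 regions of that protein on the 5 nuclear chromosomes (12.5%). They were chosen by the peak lists of gai-YPet and Ler inflorescences. A region was a merged interval that held a peak of both gai-YPet replicates and touched no Ler peak. It was kept where its summit, averaged over the replicates, lay outside every protein-coding gene and within 1000 bp of 2 or more of them. Their number and their gai-YPet values are therefore a description, whereas the gai-YPet cuc2-1 lists took no part in the choice.

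DELLA proteins are nuclear repressors of gibberellin responses that gibberellin marks for destruction. They have no DNA-binding domain of their own and reach chromatin through transcription factors, which they block or assist. In a compact plant genome many neighbouring genes share a short intergenic stretch, so a region bound there lies beside more than 1 gene. CUC2 belongs to the NAC family of transcription factors and marks the boundaries between organs.

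Chromatin was immunoprecipitated with an anti-GFP antibody and sequenced, from inflorescences freed of open flowers and of the oldest buds. The 3 genotypes were gai-YPet cuc2-1, which carries pGAI:gai∆17-3xYPet in the cuc2-1 mutant, gai-YPet, which carries the same transgene alone, and non-transgenic Ler. Each had 2 independent biological replicates of 1.8 g of tissue, from plants kept in long days (16 h of light, 8 h of darkness) at 22 °C. The GAI promoter drives the transgene, whose product lacks a stretch of GAI and carries a yellow fluorescent tag. The labels call the transgenic line L306 in both tagged genotypes, so both rest on a single line, and they do not say that the resident GAI gene was removed.

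The data were 1 peak list per ChIP library, with 8193 and 3666 peaks for gai-YPet cuc2-1 replicates 1 and 2, 7042 and 11289 for gai-YPet, and 234 and 406 for Ler. The lists hold no read counts, so sequencing depth is unknown and the length of a list is no measure of binding. Fold enrichment is the authors' own value for each peak and is used below only to describe peaks within a list. The order of strength rests on the authors' score.

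Of the peaks of the tagged protein, 11.4% to 12.8% fell between 2 close genes, in the cuc2-1 mutant as without it, and few control peaks did. In gai-YPet cuc2-1, 11.4% of the 7890 nuclear peaks of replicate 1 and 11.6% of the 3582 of replicate 2 had their own summit in such a stretch. In gai-YPet the shares were 11.6% of 6836 peaks and 12.8% of 11237. In Ler they were 0 of 178 peaks, which allows a share of up to 2.11% (upper 95% Wilson limit), and 5 of 397 peaks (1.26%). The 4 tagged lists thus lay close together and above both control lists. Stretches that meet the location rule make up 6.41% of the base pairs of the nuclear chromosomes (7.63 Mb), below the share in every tagged list and above the share in both Ler lists. The low Ler shares hold for protein-coding genes. With non-coding genes and pseudogenes counted too, the shares were 15.6% and 16.3% in gai-YPet cuc2-1, 16% and 16.8% in gai-YPet, and 8.43% and 4.03% in Ler.

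The mean share was 11.5 ± 0.162% in gai-YPet cuc2-1 and 12.2 ± 0.852% in gai-YPet (SD, n = 2 each). The difference of -0.688 percentage points was smaller than the SD of the gai-YPet lists (exact permutation test over libraries, two-sided, p = 0.667). Against Ler, whose mean was 0.63 ± 0.891% (SD, n = 2), gai-YPet lay higher by 11.5 points and gai-YPet cuc2-1 by 10.8 points (exact permutation test, two-sided, p = 0.333 for each). With 2 libraries a group this test cannot go below 0.333, so the comparisons cannot reach the usual threshold whatever their size. In both, the lowest tagged list stood above the highest Ler list. Of the 25 nuclear regions left out because a Ler peak touched them, 1 lay between 2 close genes.

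**Figure D1:**
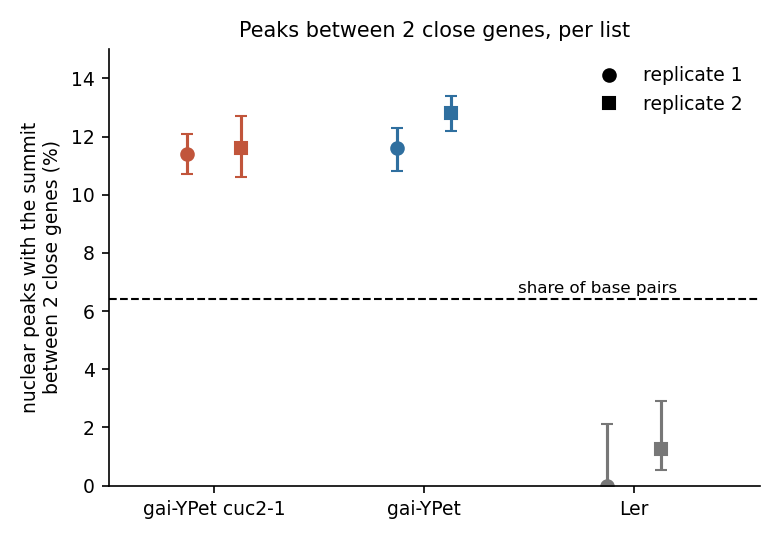
Share of nuclear peaks whose summit lies outside protein-coding genes and within 1000 bp of 2 or more of them (vertical axis, percent), for each list of the 3 genotypes (horizontal axis). Points are lists, bars are 95% Wilson intervals over the peaks of a list, and the dashed line marks the 6.41% of base pairs that meet the same rule. The 4 tagged lists sit between 11.4% and 12.8%, and the Ler lists at 0 and 1.26%.

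By the rule each summit had 2 or more genes within 1000 bp, so its distances to them describe the class and are no measure of preference for 1 gene. The median distance was 179.5 bp to the nearest gene (quartiles 79.8 and 341 bp) and 584 bp to the second nearest (quartiles 329.8 and 809.8 bp), and in 292 regions (40.6%) both genes lay within 500 bp. Exactly 2 genes were in range for 684 regions and 3 for the other 35. In 686 regions (95.4%) the genes lay on both sides of the summit. In the other 33 they lay on the same side, one behind or within the other, so that these summits are near 2 genes without lying between them.

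The gap that held the summit was 29 to 1985 bp wide where genes lay on both sides, with a median of 796 bp (n = 686). The 719 regions used 717 gaps, and 2 gaps held 2 regions each. Chromosomes 1 to 5 carried 197, 111, 163, 109 and 139 of them, in that order. The narrowest gap, of 29 bp, lay between AT4G01023 and PYL7, an abscisic acid receptor (chr4:446714-447200, TAIR10). Its peaks had folds of 2.88 in gai-YPet cuc2-1 replicate 1, with no replicate 2 peak, and 2.49 and 3.41 in gai-YPet, whose replicate 2 summit fell inside a gene. The widest gap, of 1985 bp, lay between RIC7, an effector of ROP GTPases, and AT4G28570 (chr4:14117256-14118688), with folds of 5.78 and 3.5 in gai-YPet cuc2-1 and 6.1 and 5 in gai-YPet. It was also next to nearest to the 1000 bp limit from inside, its second gene lying 996 bp away, as did that of the weaker region beside ROPGEF1 and sks9.

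The region nearest to the limit from inside lay beside BAM2, a receptor kinase of anthers and meristems, and BCAT3, a branched-chain aminotransferase, 999.5 bp from the second gene. Its folds were 6.19 and 5.12 in gai-YPet cuc2-1 and 6.61 and 5.78 in gai-YPet. Just outside lay the regions beside SUE4 and AT3G55890 (1000.5 bp) and beside AT5G25290 and AT5G25280 (1001 bp). Their folds were 4.48 and 3, and 4.7 and 2.8, in gai-YPet cuc2-1 replicates 1 and 2, and 5.74 and 4.55, and 4.8 and 4.76, in gai-YPet. The regions beside BAM2, RIC7, SUE4 and AT5G25290 stood in the stronger part of the list. The region beside ROPGEF1 and sks9, as near to the limit as that of RIC7, was weaker, so this describes only the regions chosen.

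**Figure D2:**
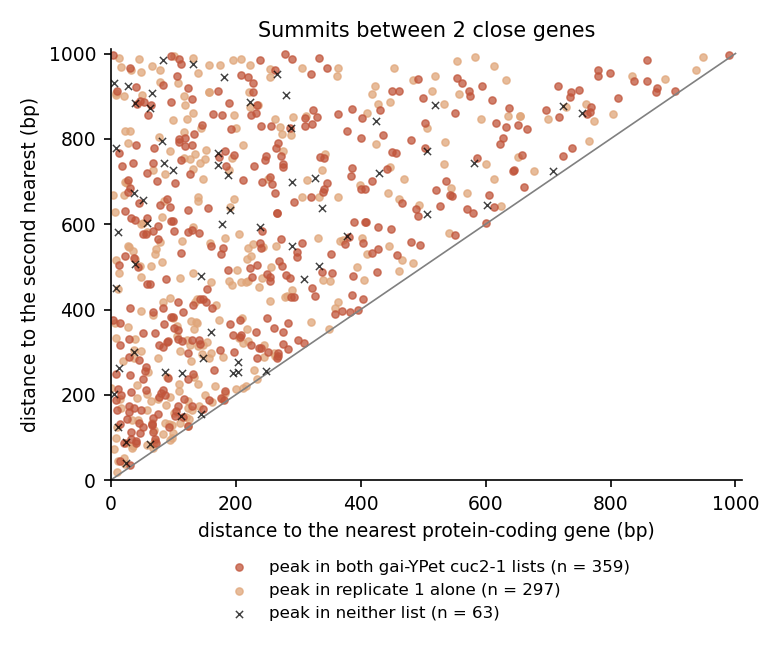
Distance from each of the 719 summits to the nearest protein-coding gene (horizontal axis, bp) and to the second nearest (vertical axis, bp), with the line of equal distances. Colours mark a peak in both gai-YPet cuc2-1 lists (359), in replicate 1 alone (297) or in neither (63), and the 3 kinds are mixed over the whole range of distances.

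Peak positions lay close together in the replicates. The 2 gai-YPet summits lay at most 100 bp apart in 668 of the 719 regions, with a median of 26 bp, the same median as over all 5755 regions. In 654 regions each replicate's own summit met the location rule, and in 47 a replicate's summit fell inside a gene. Regions were a median of 628 bp wide (233 to 2818 bp), so that 548 of them reached into at least 1 protein-coding gene and 221 into 2 or more. Most were simple, with 1 peak in each list in 658 regions. Non-coding genes were seldom at the summit. The summit lay inside 1 or more of them in 22 regions, namely 19 lncRNA and 4 misc_RNA genes, and 43 gaps held a whole non-coding gene or pseudogene.

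Regions were dense in these gaps, but not denser than in other sequence next to genes. There were 94.2 regions per Mb of qualifying sequence, 103 per Mb in sequence within 1000 bp of a single gene, 29.5 inside genes and 46.6 farther than 1000 bp from any gene. The ratio of the first density to that of single-gene sequence was 0.916. In the gaps the density of gai-YPet regions was 103 per Mb at 1 to 100 bp, 104 at 101 to 250 bp, 82 at 251 to 500 bp and 81.1 at 501 to 1000 bp, against 126, 108, 91.3 and 101 per Mb beside single genes. At each of the 4 distances the regions between 2 close genes were the sparser set, by ratios of 0.817, 0.968, 0.898 and 0.8. At the same distances in the gaps, peaks numbered 124, 125, 101 and 120.3 per Mb in gai-YPet cuc2-1 replicate 1 and 55.2, 55.6, 53.6 and 52.1 in replicate 2, against 114, 108, 92 and 96.4 and 222, 203, 156 and 154 in gai-YPet.

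The single lists gave ratios on both sides of 1. Over all distances the density of peaks in the gaps relative to single-gene sequence was 0.93 and 0.887 in gai-YPet cuc2-1 replicates 1 and 2, and 0.86 and 1.05 in gai-YPet. Stretches near 2 genes thus held peaks at a density close to that of stretches near 1 gene in each tagged list. By the width of the gap, density was highest at 251 to 500 bp and fell in the wider classes up to 2000 bp, which was not tested. Gaps of 1 to 250 bp held 96.3 regions per Mb, those of 251 to 500 bp held 109 and those of 501 to 1000 bp held 95.8. Those of 1001 to 1500 bp held 88.2, those of 1501 to 2000 bp held 77.1 and those over 2000 bp held 91.9 (24 regions). Only the part of a gap within 1000 bp of 2 or more genes counts.

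**Figure D3:**
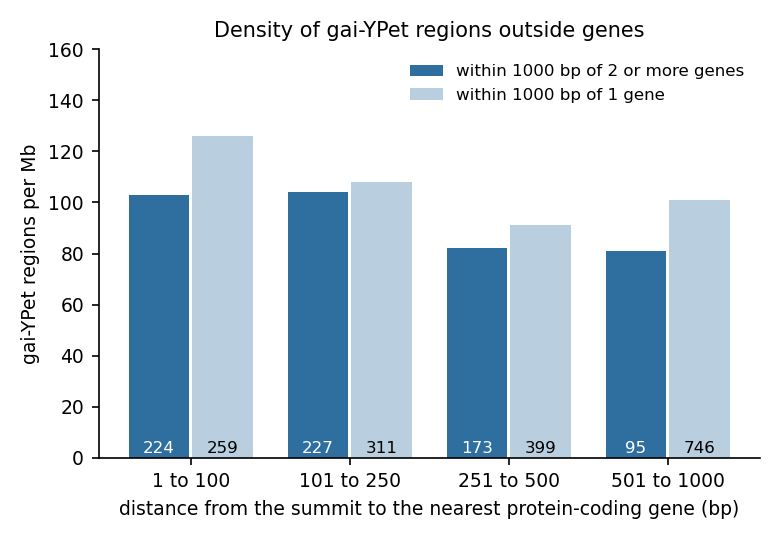
gai-YPet regions per Mb of sequence (vertical axis) by distance of the summit to the nearest protein-coding gene (horizontal axis, bp), between 2 close genes (dark bars) and near a single gene (pale bars), with the number of regions in each bar. The dark bar is the lower of the pair at all 4 distances, the smallest gap being 104 against 108 per Mb at 101 to 250 bp.

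Seen from the gaps, only a few carried a region. Of the 17846 gaps between neighbouring protein-coding genes that contain qualifying sequence, 717 (4.02%) held one. The share was 1.06% of the 5683 gaps of 1 to 250 bp and 7.01% of the 4066 gaps of 501 to 1000 bp. Divided only into the central 50% of a gap and the rest, the summits were spread about evenly. By distance to the nearest gene, as given above, gai-YPet regions were denser up to 250 bp than beyond. In gaps of 100 to 1000 bp, 229 of 458 summits (50%, 95% Wilson interval 45.4 to 54.6) lay in the central 50% of the gap. The single lists gave 50.5% of 548 and 46.5% of 256 summits in gai-YPet cuc2-1 replicates 1 and 2, and 48.6% of 486 and 47.2% of 927 in gai-YPet. Gap width and strength were only weakly related over the 686 regions with genes on both sides (Spearman rho of 0.115, a description, since regions of a list share its library and depth).

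Between 2 close genes the protein had peaks of about the same rank and fold within each list as elsewhere. Strength is the mean over the gai-YPet lists of the percentile, within its list, of the highest peak of the region. Both the percentile and the highest peak go by the authors' score, which follows the q-value, and fold only breaks ties. The strongest regions are thus those of the highest significance, not always of the highest fold. Its median was 62.9 over the 719 regions and 63.9 over all 5755. The median folds were 3.3 and 2.75 in gai-YPet cuc2-1 replicates 1 and 2, over the regions with a peak, and 3.39 in each gai-YPet replicate. Over all regions they were 3.25 and 2.76 in gai-YPet cuc2-1, and 3.45 and 3.49 in gai-YPet. Among the 719 the folds ran from 1.66 to 9.82 and from 1.71 to 9.62 in gai-YPet cuc2-1, and from 1.66 to 15.5 and from 1.48 to 8.46 in gai-YPet. The gai-YPet folds of replicates 1 and 2 ranked the regions alike (Spearman rho of 0.806 over 719 regions, a description).

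The strongest region lay between SCL3 and DWF5 (chr1:18679430-18681799). SCL3 is a GRAS protein that works against DELLA proteins in gibberellin signalling, and DWF5 is a sterol reductase of brassinosteroid synthesis. Its folds were 9.82 and 9.62 in gai-YPet cuc2-1 replicates 1 and 2, and 15.5 and 8.46 in gai-YPet. The summit lay 735 bp from SCL3 and 897 bp from DWF5, in a gap of 1631 bp, and the summits of gai-YPet cuc2-1 lay 0 and 12 bp from it.

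The next strongest region lay between HAM1, a histone acetyltransferase, and C/VIF2, an invertase inhibitor (chr5:25830500-25833184). Its folds were 8 and 6.12 in gai-YPet cuc2-1 and 12.3 and 7.89 in gai-YPet. The third lay 22.5 bp from AT3G17980, a small C2 domain protein, and 526.5 bp from XPL1, a phosphoethanolamine methyltransferase of phosphocholine synthesis (chr3:6153471-6154460). Its folds were 9.78 and 5.85 in gai-YPet cuc2-1 and 13 and 7.61 in gai-YPet. Within each tagged list the highest peaks of these 3 regions stood at percentile 98.1 or above.

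Genes of light and hormone signalling were among the next. The region between SPA4, a repressor of light responses, and AT1G53080 (chr1:19782226-19783758) had folds of 9.33 and 6.98 in gai-YPet cuc2-1 and 11.5 and 7.76 in gai-YPet. The region between AT4G33440 and BAK1, the co-receptor of brassinosteroids (chr4:16090375-16092183), had 8.72 and 6.67 in gai-YPet cuc2-1 and 11.4 and 7.15 in gai-YPet. Its summit lay 27 bp from AT4G33440 and 676 bp from BAK1, so the hormone gene was not the nearer one. A region with 3 genes in range lay 198 bp from AT4G38840, 300 bp from SAUR15, a small auxin-induced gene, and near CRK26, a receptor-like kinase (chr4:18124881-18126731). Its folds were 8.63 and 5.8 in gai-YPet cuc2-1 and 9.06 and 7.26 in gai-YPet.

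The others of the 10 strongest lay beside genes of metabolism, transport and unnamed loci. The region beside AT2G18970 and AT2G18969 had folds of 8.41 and 4.13 in gai-YPet cuc2-1 and 11.1 and 7.62 in gai-YPet, and both of its genes lay on the same side. The region between AT1G19880 and iqd32, which encodes a calmodulin-binding IQD protein, had 8.66 and 5.06 in gai-YPet cuc2-1 and 9.47 and 6.89 in gai-YPet. The region between AT3G61950 and MTPA1, a metal transporter, had 7.22 and 5.06 in gai-YPet cuc2-1 and 10.6 and 7.4 in gai-YPet. The region between THA1, a threonine aldolase, and CJD1, a chloroplast J-domain protein, had 8.09 and 3.96 in gai-YPet cuc2-1 and 9.71 and 7.11 in gai-YPet. All 10 had peaks in all 4 tagged lists, as did every region of the strongest 10%, between 2 close genes or elsewhere. Their gai-YPet cuc2-1 summits lay in the same gap. Among the 719 regions this held for 95.9% of those with a replicate 1 peak and 95.5% of those with a replicate 2 peak.

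**Figure D4:**
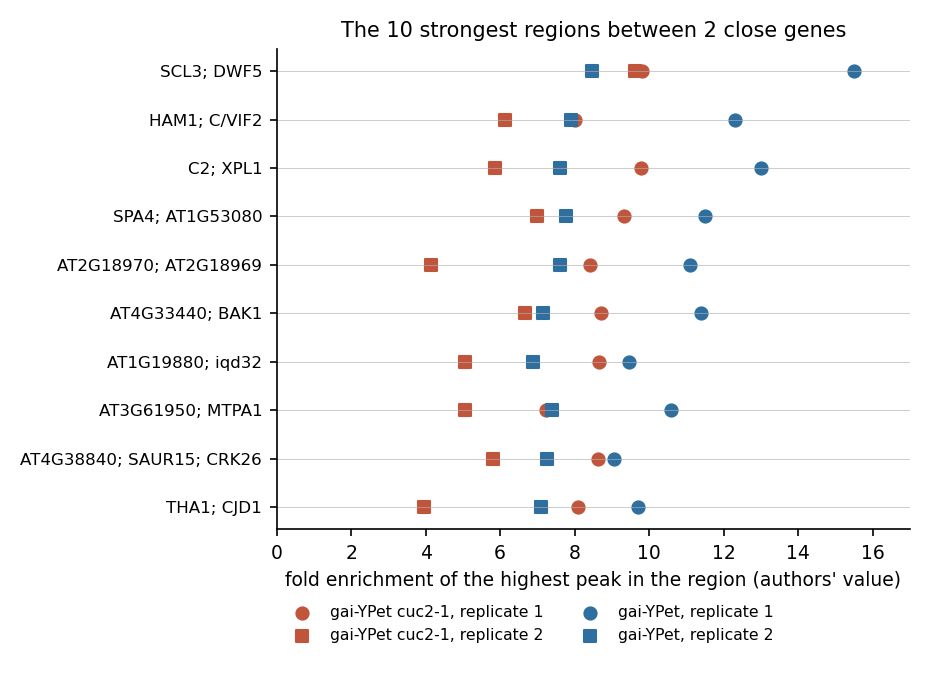
Authors' fold enrichment (horizontal axis) of the highest peak in each of the 10 strongest regions (vertical axis, named by the genes within 1000 bp), in gai-YPet cuc2-1 (red) and gai-YPet (blue), replicate 1 as circles and replicate 2 as squares. All 10 have 4 points. Within gai-YPet replicate 1 they run from 9.06 to 15.5, the highest being at SCL3 and DWF5, and folds of different lists are not on a common scale.

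A further strong region had 3 genes in range, namely AT5G14560, AT5G14550 and NRT2.7, a nitrate transporter of seeds (chr5:4694157-4694830). Its folds were 8.64 and 5.5 in gai-YPet cuc2-1 and 10.2 and 5.75 in gai-YPet, and its gap of 997 bp also held the microRNA gene MIR398c. The lists give no way to tell which of several genes in range a bound region serves.

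The regions lay beside 1433 protein-coding genes, 5.22% of the 27444 on the nuclear chromosomes, and 39 of these genes lay beside 2 or more of the regions. Of 498 genes in 17 lists of hormone, development, light and tissue genes, 34 (6.83%) were beside one. The lists were written with earlier results of these data known, so the 34 describe the lists and support nothing further. The list genes belonged to 32 of the 719 regions, and 2 regions had 2 list genes each, SCL3 with DWF5 and RBCS2B with RBCS1B.

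Of 43 gibberellin genes, 3 lay beside a region of this kind, out of 29 beside or holding any gai-YPet region. Besides SCL3 these were ENY, an IDD zinc finger factor, and RGL2, a DELLA gene that represses seed germination. At ENY the folds were 4.53 and 4.2 in gai-YPet cuc2-1 and 6.58 and 5.27 in gai-YPet (chr5:26641193-26641857). At RGL2 they were 5.02 and 3.35 in gai-YPet cuc2-1 and 4.37 and 5.37 in gai-YPet (chr3:818900-819519). Both summits lay close to the gene, 58.5 bp from ENY and 67 bp from RGL2. Over all protein-coding genes, 1433 of the 4948 beside or holding a gai-YPet region (29%) lay beside one of this kind.

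Of 28 brassinosteroid genes, 3 lay beside one, namely DWF5, BAK1 and DWF7, a sterol desaturase of the same pathway as DWF5. The DWF7 region (chr3:545523-547016) had folds of 5.59 and 3.82 in gai-YPet cuc2-1 and 6.59 and 6.06 in gai-YPet. Its nearer gene was MEE31, at 227 bp, and DWF7 lay 910 bp away. The regions beside the 3 brassinosteroid genes had a peak in all 4 tagged lists, as did 49.8% of all 5755 regions. They were in the strongest 10% of all regions, where every region had such peaks, so this is not a result about brassinosteroid genes.

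Auxin genes were 2 of 57 (3.51%) and jasmonate genes 2 of 29 (6.9%), against 5.22% of all protein-coding genes. At AUX1, an auxin importer, the folds were 3.01 and 2.41 in gai-YPet cuc2-1 and 3.59 and 3.76 in gai-YPet. At TIR1, an auxin receptor, they were 2.67 in replicate 1 of gai-YPet cuc2-1, with no replicate 2 peak, and 3.17 and 2.81 in gai-YPet. There the gai-YPet replicate 2 summit fell inside a gene. Like TIR1, both jasmonate genes, LOX3, a lipoxygenase of jasmonate synthesis, and MYC4, a bHLH factor of the jasmonate response, had a gai-YPet cuc2-1 peak in replicate 1 alone, with a fold of 2.68 at LOX3 and 2.59 at MYC4. In gai-YPet replicates 1 and 2 the folds were 3.68 and 3.39 at LOX3 and 2.82 and 3.27 at MYC4. None of the 50 cytokinin genes lay beside a region between 2 close genes, so that the share was 0 of the 21 that were beside or held some gai-YPet region, beside 29% over all such genes. By the same measure auxin genes were 2 of 31, photosynthesis genes 4 of 10 and clock genes 3 of 4. Tapetum and pollen genes were 3 of 3, seed storage and housekeeping genes 1 of 2 each, and root genes 1 of 3. The lists thus lay on both sides of 29%, and none was tested. The list of abscisic acid and ethylene genes gave HAB1, a phosphatase of abscisic acid signalling, as 1 of 39, with 2.2 in gai-YPet cuc2-1 replicate 1 alone and 2.56 and 2.18 in gai-YPet. The light list gave SPA4 as 1 of 28.

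Among developmental genes, the boundary, placenta and ovule list gave CUC1, ALC and ANT, as 3 of 32. CUC1, the closest relative of CUC2, had a fold of 2.49 in gai-YPet cuc2-1 replicate 1, no replicate 2 peak, and 3.13 and 2.71 in gai-YPet (chr3:5109039-5109894). Its 2 gai-YPet summits lay 508 bp apart, and that of replicate 1 alone was near a single gene, so its place in this class rests on the averaged summit. ALC, a bHLH factor of fruit opening, and ANT, an AP2 factor of organ growth, had no replicate 2 peak in gai-YPet cuc2-1 either, with replicate 1 folds of 2.51 at ALC and 2.19 at ANT. Their gai-YPet folds were 2.91 and 3.07 at ALC and 2.63 and 2.98 at ANT. AP3, a floral organ identity gene, was the only floral and meristem gene, 1 of 30, with 3.85 and 2.91 in gai-YPet cuc2-1 and 4.52 and 3.52 in gai-YPet. CYCD1;1, a D-type cyclin, was the only one of 27 cell cycle genes, with 2.76 in gai-YPet cuc2-1 replicate 1 alone and 3.83 and 3.48 in gai-YPet.

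The TCP list, factors of leaf and petal growth and of cell division, gave TCP4, TCP7, TCP9 and TCP13, as 4 of 24. At TCP4 the folds were 4.34 and 2.94 in gai-YPet cuc2-1 and 4.72 and 4.52 in gai-YPet (chr3:5064036-5065096). At TCP9 they were 3.16 and 2.16 in gai-YPet cuc2-1 and 2.61 and 2.52 in gai-YPet. The regions beside TCP7 and TCP13 had no gai-YPet cuc2-1 peak, and each of these genes had another gai-YPet region that did.

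Photosynthesis genes were 4 of 26. RBCS2B and RBCS1B, neighbouring genes for the small subunit of Rubisco, shared a region with folds of 3.67 and 2.53 in gai-YPet cuc2-1 and 2.98 and 4.59 in gai-YPet (chr5:15381341-15382455). The summit lay 109.5 bp from RBCS2B and 986.5 bp from RBCS1B. Taken alone, the gai-YPet replicate 1 summit was near a single gene. GUN4, a regulator of chlorophyll synthesis, had 3.98 and 2.29 in gai-YPet cuc2-1 and 3.39 and 3.51 in gai-YPet, at a summit 33 bp away in a gap of 128 bp. CHLH, a subunit of magnesium chelatase, had 2.36 in gai-YPet cuc2-1 replicate 1 alone and 2.53 and 2.98 in gai-YPet. RBCS2B and GUN4 had a peak in all 4 tagged lists, as did 49.8% of all regions, and CHLH in 3.

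Clock genes were 3 of 19. LHY, a MYB factor of the morning clock, had 2.51 in gai-YPet cuc2-1 replicate 1 alone and 2.69 and 2.88 in gai-YPet. PRR9, a pseudo-response regulator, and LNK2, a co-activator of clock genes, had no gai-YPet cuc2-1 peak, with gai-YPet folds of 2.4 and 2.17 at PRR9 and 2.35 and 1.68 at LNK2. Neither had another region with such a peak. At PRR9 the gai-YPet replicate 2 summit, taken alone, was near a single gene.

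Lists of other tissues and of housekeeping genes also had members here. They were SPL8, MYB80 and ATA7 of 21 tapetum and pollen genes, SCR of 16 root genes, SESA1 of 14 seed storage genes and ACT7 of 15 housekeeping genes. SPL8, an SBP-box factor of anther development, was the strongest of them, with 5.92 and 5.04 in gai-YPet cuc2-1 and 9.05 and 6.6 in gai-YPet (chr1:366966-368707). SCR, a GRAS factor of root patterning, had 5.99 and 3.05 in gai-YPet cuc2-1 and 6.18 and 5.43 in gai-YPet. SESA1, a seed storage albumin, had a fold of 2.7 in gai-YPet cuc2-1 replicate 1 alone and 3.25 and 2.51 in gai-YPet. ACT7, an actin gene, was weak, with 2.16 in gai-YPet cuc2-1 replicate 1 alone and 2.27 and 2.92 in gai-YPet. MYB80, a MYB factor of the tapetum, had 2.51 in gai-YPet cuc2-1 replicate 1 alone and 2.48 and 2.6 in gai-YPet. Counts of 1 to 4 genes in lists of this size are a description and do not set the lists apart.

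In 32 regions the 2 nearest genes bore the same family symbol, such as neighbouring copies of a gene. These were picked out after their values were seen. SPL11 and SPL10, SBP-box factors of shoot development, shared a region with folds of 5.45 and 3.61 in gai-YPet cuc2-1 and 6.74 and 6.36 in gai-YPet. SAUR28 and SAUR27 shared 1 with 5.37 and 2.59 in gai-YPet cuc2-1 and 6.64 and 5.31 in gai-YPet. NIT2 and NIT1, nitrilases, shared 1 with 5.31 and 3.52 in gai-YPet cuc2-1 and 6.01 and 5.66 in gai-YPet. Reads from near-identical copies may map to either, and the authors' handling of such reads is not given here.

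Most of these regions also had a peak where CUC2 was mutated. In gai-YPet cuc2-1, 656 of the 719 (91.2%, 95% Wilson interval 88.9 to 93.1) held a peak of at least 1 list, against 90.3% of all 5755 regions. The share was 91.2% in replicate 1, against 90.1% of all regions, and 359 of 719 (49.9%) in replicate 2, against 49.97%. Both lists had a peak at 359 (49.9%, 46.3 to 53.6), against 49.8%, and neither at 63 (8.76%, 6.91 to 11.1), against 9.71%. Replicate 2 never had a peak where replicate 1 had none, and 297 regions had one in replicate 1 alone. Of all 5755 regions, 5187 had a peak in replicate 1, 5196 in at least 1 list and 2867 in both. A peak in replicate 2 alone was thus rare there too. All of these shares lay near those over all regions, so they are not a result about regions between 2 close genes.

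The other kinds of place gave like shares with a peak in at least 1 gai-YPet cuc2-1 list. They were 89.7% of 1715 regions near a single gene, 90.7% of 1905 inside genes and 89.97% of 1416 farther away. The 2 gai-YPet cuc2-1 lists differed more from each other than any of these kinds did, replicate 2 being the shortest tagged list. With the 4 tagged lists reduced to 3666 peaks each, 295 of 358 regions between 2 close genes (82.4%) had a peak in both, and 2054 of 2603 other regions (78.9%).

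A gai-YPet cuc2-1 peak counted only where it overlapped the region, so that rule partly set how close the summits lay. In gai-YPet cuc2-1 replicate 1 the summit was in the same gap in 629 of 656 regions (95.9%), at a median of 20 bp from the gai-YPet summit. In replicate 2 it was in 343 of 359 (95.5%), at a median of 22.5 bp. The largest distances were 804 bp in replicate 1 and 1087 bp in replicate 2. The same values over all regions are not given here. By the same rule, the gai-YPet cuc2-1 lists gave 397 of 3187 regions between 2 close genes (12.5%, 95% Wilson interval 11.4 to 13.6), the share found in gai-YPet (12.5%, 11.7 to 13.4). Of the 397, 353 touched one of the 719, and 0 lacked a gai-YPet peak. No matching share over all 3187 regions is given here, so these counts are not a result about this kind of place.

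Regions without a gai-YPet cuc2-1 peak were mostly weak in gai-YPet. The median strength was 33.7 for the 63 without and 67.4 for the 656 with a peak. The strongest of the 63 stood at 67, above the median of 62.9 over the 719. In the weakest 10% of all regions, 29 of 75 regions between 2 close genes (38.7%) had none, as did 247 of 500 other regions (49.4%). Ordered by strength in 10 equal classes, none of the 719 lacked a peak from the seventh class up, and none of the other regions did. In replicate 2 the share with a peak climbed over the classes, with 1.33% in the weakest, 35.8% in the fifth and 100% in the strongest. Among the other regions these shares were 4.8%, 33.8% and 100%. All 76 regions of the strongest 10% that lay between 2 close genes had a peak in both gai-YPet cuc2-1 lists, as did all 500 other regions of that class. The same pattern thus held in the other regions and is not a result about regions between 2 close genes.

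**Figure D5:**
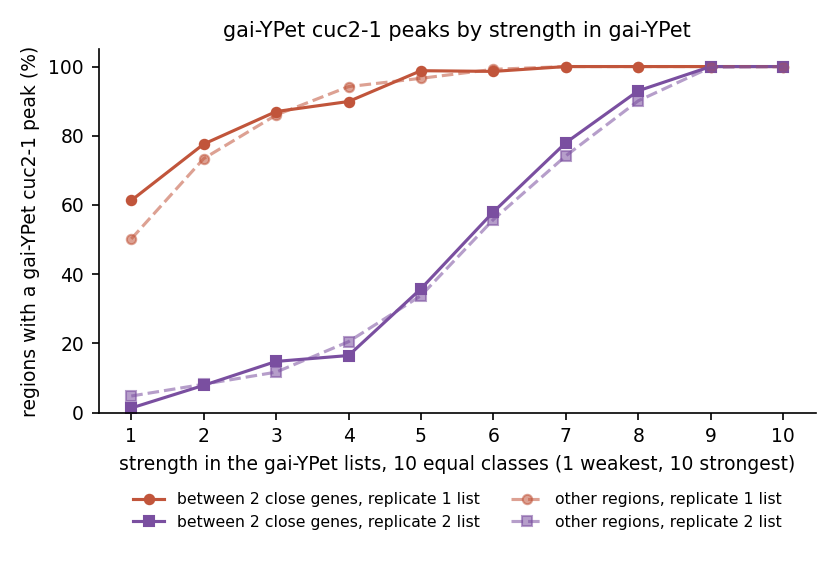
Share of gai-YPet regions with a gai-YPet cuc2-1 peak (vertical axis, percent) in 10 equal classes of strength in the gai-YPet lists (horizontal axis), for replicate 1 (red circles) and replicate 2 (purple squares). Solid lines are the 719 regions between 2 close genes and dashed lines the 5036 others. For replicate 1 the solid and dashed lines start at 61.3% and 50.2% in the weakest class, lie close from the third class on, and reach 100% in the strongest.

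The strongest of the 63 lay between AT4G19180 and UMAMIT2, of an amino acid transporter family (chr4:10488609-10489005), with folds of 3.6 and 3.49 in gai-YPet. AT4G19180 also lay beside another region of the class, shared with NCED4, which had folds of 4.3 and 2.26 in gai-YPet cuc2-1. The next of the 63 lay near AT2G37530, AT2G37520 and AT2G37540, with 3.48 and 2.96, and near AT1G12150 and AT1G12160, with 3.18 and 3.14. The region between AAC3, a mitochondrial ADP/ATP carrier, and ATA7, a lipid transfer protein of the tapetum, had 2.94 and 3.11, that beside AK3, an aspartate kinase, and AT3G02010 had 3.29 and 2.9, and that between AT2G40240 and AT2G40250 had 2.91 and 3.22. These folds lay near the medians of the class or below them. The 63 regions lay beside 121 genes with no other region of the class that had a gai-YPet cuc2-1 peak, 8.44% of the 1433, and 14 of the 121 had such a peak at a region of another kind. Of the 34 list genes, 5 were among the 121, namely TCP7, TCP13, PRR9, LNK2 and ATA7.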

How the data were processed

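Peak lists of 6 ChIP libraries were analysed, and 6 input libraries appear in the labels. Tools named in the submitters' processing notes are cutadapt, Bowtie2, SAMtools, MACS2 and bedtools, with build TAIR10. The sources used here give neither versions nor settings. Each deposited peak has a position, a summit offset, a score, a ratio (fold enrichment) and p- and q-values as −log10. The authors' score is the −log10 q times 10 without its decimals, in every line of all lists. The 3 replicate 2 lists were deposited with damaged decimal marks in their fold and −log10 columns. Values were read with 5 decimals, after which the score relation held. That relation checks the q-values alone, so the folds of all replicate 2 lists rest on this reading.

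Overlap meant 1 bp or more. Genes came from a RefSeq table of TAIR10.1, whose positions were taken to equal TAIR10 and are not printed. As a check, 66.9% of summits lay outside protein-coding genes as given and 39.9% after a shift of 5000 bp, and 12.5% and 7.02% lay between 2 close genes. The table has no strand and no sequence was used, so divergent gaps and promoter motifs were not analysed here. Members and gene lists were chosen with earlier results of these data known. All 498 list genes matched by locus tag.

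Named regions were the 10 strongest, those with 2 or more list genes, the 2 strongest per list, the 6 strongest without a gai-YPet cuc2-1 peak, the 2 strongest with 3 genes, the narrowest and widest gaps, and the 2 on each side of the limit. Further list genes were named, after their values were seen, to account for each list's count. Shares carry 95% Wilson intervals, which describe a list and not the spread between plants. Libraries were compared by an exact permutation test. Location calls on simulated positions were right in 100% of 3000. Software was Python 3.11.15 with scipy 1.17.1, numpy 2.4.6, matplotlib 3.10.9 and pandas 2.3.3. Alternatives were windows of 500 and 2000 bp, all gene types, a reciprocal overlap of 50%, the stronger 50% of each list, control peaks kept, single-replicate summits, each list left out, lists of equal length and a replicate block.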

Additional observations from a re-analysis of the deposited data

How the results depend on the processing

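The number of regions between 2 close genes, 719, was 292 with a window of 500 bp, 1659 with 2000 bp, 465 where overlap had to be reciprocal (50%) and 400 in the stronger 50% of each list. It ranged from 789 to 1430 with a gai-YPet list left out, 1430 being without gai-YPet replicate 1, where every peak of the longest list counts. As a share of regions it was 12.6%, 12.6% and 11.8% to 12.8% under the last 3 of these, and 5.07% and 28.8% under the first 2. The share with a peak in at least 1 gai-YPet cuc2-1 list, 91.2%, was 93.2% with 500 bp, 88.2% with the reciprocal overlap, 94.5% with the stronger 50% and 96.6% with tagged lists of equal length. Leaving out a list gave 49.9% to 91.2%, with 56.5% without gai-YPet replicate 1 and 49.9% without gai-YPet cuc2-1 replicate 1. The share with a peak in both lists, 49.9%, was 43% with the reciprocal overlap and 82.4% with lists of equal length, and 26.1% to 48.2% with a gai-YPet list left out, the lowest without replicate 1. With non-coding genes and pseudogenes counted as genes the number was 977 (17% of regions), and the shares with gai-YPet cuc2-1 peaks were 91.5% and 51.2%.

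The difference in the share of peaks between 2 close genes, gai-YPet cuc2-1 minus gai-YPet, was -0.688 points and turned to 0.059 points with the stronger 50% of each list (12.6% against 12.5%). It ran from -1.29 to -0.0855 points with a list left out. Both differences from Ler stayed positive, from 10.2 to 12.2 points with a list left out. They scaled with the window, to 4.73 points (gai-YPet) and 4.45 points (gai-YPet cuc2-1) at 500 bp, and 24.9 and 24.1 points at 2000 bp. With a replicate block the 3 differences were -0.688, 11.5 and 10.8 points, with an exact sign-flip p of 0.5 each, the smallest that 2 pairs allow. Replicate numbers share no plant or batch in the labels. The replicate deviations of log2 fold in gai-YPet cuc2-1 and gai-YPet correlated by 0.122 over 2867 regions, with only 2 pairs. The share of divergent gaps was planned but not run, since the gene table gives no strand. Read depth is unknown, so list length and depth cannot be told apart from occupancy.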
